A study of Mus musculus with 20 samples.

Results

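The genes described here are 10 regulators of the G1 phase of the cell cycle: the D cyclins Ccnd1, Ccnd2 and Ccnd3, cyclin E (Ccne1), the cyclin-dependent kinases Cdk2 and Cdk4, and the kinase inhibitors Cdkn1a, Cdkn1b, Cdkn1c and Cdkn2c. They were chosen by name, with earlier results of these data known. Every probe set (the unit of the array that reads 1 transcript) whose single platform symbol is one of these was used. This gave 15 of 12422 probe sets, for 10 of 8252 genes with a single symbol. Of these, 12 probe sets for 9 genes passed a filter on dim probe sets and were tested, among 6913 probe sets for 5372 genes in all. The 3 that did not pass were 1 of the pair for Cdk2 and both for Cdkn1b.

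Total RNA from the whole prostate was measured on Affymetrix mouse arrays, 1 C57/B6 mouse of 10 to 12 weeks per array and 5 mice per group. There were 4 groups: sham-treated controls, mice castrated for 3 days, mice castrated for 14 days, and mice that carried a 15 mg testosterone pellet for 3 days after 14 days of castration (the testosterone group). The labels name no genetic change in any group, and the time between the sham procedure and collection is not given in the sources used here. The comparisons set the gland without androgen against the intact gland, and the regrowing gland against both.

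G1 is the stretch of the cell cycle in which a cell commits to copying its DNA. D cyclins bind Cdk4 and its relative Cdk6, cyclin E binds Cdk2, and both complexes phosphorylate the retinoblastoma protein family, which releases E2F transcription factors to switch on S phase genes. Inhibitors of the CIP/KIP family (Cdkn1a, Cdkn1b and Cdkn1c, also called p21, p27 and p57) bind cyclin-kinase complexes, while INK4 inhibitors such as Cdkn2c (p18) bind Cdk4 and Cdk6 alone. In the prostate the luminal epithelium shrinks after castration and divides again when androgen returns.

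Array medians ran from 154 to 224. On 4 arrays the control probe sets for the 3′ end of Gapdh were far brighter than those for its 5′ end. Their log2 ratio was 2.07 and 1.85 for castrated 14-day mice 4 and 5, and 4.50 and 3.92 for testosterone mice 2 and 5. The other 16 arrays had ratios between -0.50 and -0.06, so results are also given without those 4 arrays where that ended or added a call. The luminal epithelial markers Krt8, Krt18, Pbsn and Cdh1 exceeded the filter signal of 190.8 on at least 1 array of each group, with median summed signals of 29678 in sham, 28206 at 3 days, 19574 at 14 days and 22120 with testosterone. The sum follows the secretory gene Pbsn, which fell by 1.80 on the log2 scale at 14 days against sham, while Krt8 rose by 0.96 and Krt18 (0.22) and Cdh1 (-0.30) were not called. Genes named for the secretion of the seminal vesicle were also bright, with median sums of 55312, 50560, 18828 and 45462 over the same groups. In whole tissue, fewer cells of a type and less RNA per cell cannot be told apart. The running numbers in the array titles follow the groups, so a batch along them and the treatment cannot be told apart.

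Testosterone replacement moved most of the measured G1 genes. Against mice castrated for 14 days, 5 of the 9 tested genes were higher in the testosterone group (Ccnd1, Ccnd3, Ccne1, Cdk2 and Cdkn2c) and 3 were lower (Ccnd2, Cdkn1a and Cdkn1c), while Cdk4 was not called. Over all 5370 genes of this comparison, 18.7% were called higher and 27.8% lower at an adjusted p under 0.05. The median log2 change was 0.37 over the 9 genes and -0.11 over all genes. When each array was centred on its median the all-gene median shifted by 0.19. The split became 6 higher and 2 lower, beside 26.9% and 15.6% of all genes, with Cdk4 among the higher and Cdkn1a no longer called. Centring shifted the all-gene median of testosterone against sham by 0.17. Without the 4 high-ratio arrays, with the probe sets unchanged, 3 were higher and 2 lower, beside 17.9% and 23.9% of all genes. Ccnd1, Cdkn1a and Cdkn2c were then no longer called.

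Castration for 14 days gave 4 higher (Ccnd2, Cdk4, Cdkn1c and Cdkn2c) and 2 lower (Ccnd3 and Ccne1) of 9 against sham, beside 30.4% and 23.8% of all genes, with a median log2 change of 0.33 over the 9 and 0.04 over all genes. Without the 4 high-ratio arrays, with the probe sets unchanged, Ccnd3 and Ccne1 were no longer called (adjusted p = 0.141 and 0.127). At 3 days 1 gene, Cdk4, was higher than in sham and 0 were lower, beside 10.5% and 4.66% of all genes, and that 1 call ended when arrays were centred on their median, with the log2 change still 0.33 (adjusted p = 0.0888). Between 14 and 3 days of castration 3 genes were higher (Ccnd2, Cdkn1c and Cdkn2c) and 0 lower, beside 21.4% and 19.9%. Against sham, the testosterone group had 5 genes higher (Ccnd1, Ccne1, Cdk2, Cdk4 and Cdkn2c) and 0 lower, beside 24.6% and 28.6%, with medians of 0.41 and -0.07. At an unadjusted limma p under 0.05 these 3 counts of lower genes were also 0. Without the 4 high-ratio arrays, with the probe sets unchanged, testosterone against sham again gave 5 higher, beside 22.3% of all genes. Ccnd3 was then called and Ccnd1 was not. The comparisons share arrays, so their counts are not independent of each other.

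**Figure D1:**
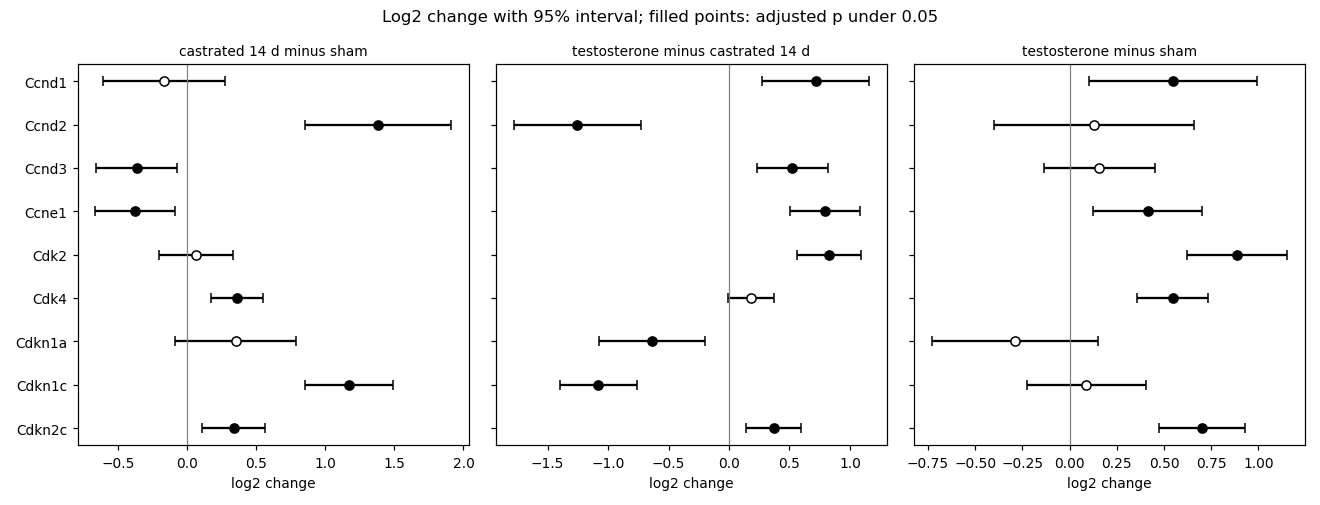
Log2 change with its 95% interval (x axis) for the 9 tested G1 genes (rows) in 3 comparisons, each gene by its brightest probe set; filled points have an adjusted p under 0.05. Ccnd2 and Cdkn1c lie right of 0 at 14 days of castration against sham (1.38 and 1.17) and left of 0 with testosterone against 14 days (-1.25 and -1.08), while Cdk2 lies right of 0 in both testosterone panels (0.83 and 0.89).

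Among the D cyclins, Ccnd1 and Ccnd2 moved in opposite directions when testosterone was given. Ccnd1, the D cyclin that many mitogens induce, had signals of 3015.5, 1474, 1144, 1185.2 and 917.1 in sham prostates. The signals were 1128.1, 1126.9, 994.6, 987.6 and 944.8 at 3 days of castration, 1247, 1485.6, 1162.1, 1377.5 and 1033 at 14 days, and 2094.7, 2178.8, 1833, 1891.3 and 2361 in the testosterone group. Each testosterone array was above each array of both castrated groups, whereas 1 sham array stood well above the rest of its group and above every testosterone array.

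Ccnd1 averaged 2072 ± 215 in the testosterone group and 1261 ± 177 in mice castrated for 14 days (SD, n = 5 each), a log2 change of 0.72 ± 0.21 (SE, 1.64-fold, adjusted p = 0.00967). Without the 4 high-ratio arrays the change was 0.58 and was not called (adjusted p = 0.126). Testosterone against sham gave 0.55 ± 0.21 (adjusted p = 0.0371), with a sham mean of 1547 ± 844. This second call was not steady: without the bright sham replicate 1 the change was 0.82 (adjusted p = 4.65e-05), and without sham replicate 5 it was 0.39 (adjusted p = 0.12). It was 0.46 and not called without the 4 high-ratio arrays (adjusted p = 0.166), and with both probe sets averaged it was 0.09 (adjusted p = 0.783). It also ended without sham replicates 2, 3 or 4, without testosterone replicates 1, 2 or 5, without a filter (adjusted p = 0.0514), with quantile normalization (adjusted p = 0.0539) and when only those groups were fitted (adjusted p = 0.114).

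The other Ccnd1 probe set, 94231_at, read differently. Its signals were 875.2, 220.7, 200.7, 237 and 256.4 in sham, 178.9, 222.1, 252.3, 249.1 and 296.8 at 3 days, 100.3, 140.7, 199.9, 79.3 and 182.6 at 14 days, and 414.9, 153.6, 251.2, 311.6 and 120.2 with testosterone. The 14-day arrays lay below every sham array here, and the lowest testosterone arrays were replicates 2 and 5, the high-ratio ones. At 14 days against sham this probe set fell by 1.10 ± 0.36 on the log2 scale (adjusted p = 0.0153), where the brighter one, 94232_at, gave -0.17 (adjusted p = 0.523). With testosterone against 14 days it gave 0.72 ± 0.36, the same size as the brighter probe set, with an adjusted p of 0.112. With testosterone against sham, where the brighter probe set was called higher at 0.55, this one had the opposite sign, at -0.38 (95% interval -1.13 to 0.38, adjusted p = 0.392). The pair thus gave the same log2 change only with testosterone over 14 days of castration among these 3 comparisons.

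By the brightest probe set of each gene, Ccnd2 gave the widest span of group means among the 9 tested. Its signals were 215.3, 152.5, 43.5, 114.6 and 121.8 in sham, 146.4, 118.6, 160, 117.9 and 155.8 at 3 days of castration, 371.1, 375.3, 296, 328.1 and 265.9 at 14 days, and 176.5, 126.1, 99.7, 145.6 and 108.7 with testosterone. The 14-day arrays stood above every array of the other groups, which overlapped each other. Of the 6 arrays on which it exceeded the filter signal, 5 were the 14-day arrays, so its passing the filter depended on that group and favoured a difference. With no filter, over 12422 probe sets, the adjusted p was 0.000329 at 14 days against sham, 0.00299 at 14 against 3 days and 0.00101 with testosterone against 14 days.

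Ccnd2 averaged 327 ± 47.4 at 14 days and 129.5 ± 62.4 in sham (SD, n = 5 each), and rose by 1.38 ± 0.25 on the log2 scale (2.61-fold, adjusted p = 0.000148). The 14-day group was also above the 3-day group, by 1.16 ± 0.25 (adjusted p = 0.00143), and the 3-day change against sham was 0.23 (adjusted p = 0.618). With testosterone it fell by 1.25 ± 0.25 against 14 days (2.38-fold lower, adjusted p = 0.000464), to 131 ± 30.8. Testosterone against sham gave 0.13 with a 95% interval of -0.40 to 0.66. Without the 4 high-ratio arrays Ccnd2 did not pass the filter; tested with the same probe sets it was called in those 3 comparisons.

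Ccnd3, the third D cyclin, averaged 1033 ± 222 with testosterone and 707 ± 100 at 14 days of castration. Its signals were 1003.9, 1036.7, 863.6, 945.1 and 727.2 in sham, 666.8, 711, 771.3, 873 and 787.2 at 3 days, 763, 839.4, 711.1, 584.9 and 638.7 at 14 days, and 1034.4, 734, 1353.3, 1071.6 and 971.9 with testosterone. Testosterone replicate 2, one of the high-ratio arrays, overlapped the 14-day group, and the other 4 lay above it. The rise was 0.52 ± 0.14 (1.44-fold, adjusted p = 0.00496). Testosterone against sham gave 0.16 (adjusted p = 0.358). Without the 4 high-ratio arrays, with the probe sets unchanged, that change was 0.33 and was called (adjusted p = 0.0466). The 14-day fall against sham was small, at -0.37 ± 0.14 (adjusted p = 0.0346), and also ended without a filter, with array weights and without any of 5 single arrays.

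The balance among the D cyclins was taken as log2 ratios within each array, which restate the changes above. Ccnd2 passed the filter through its 14-day arrays, so its ratios in comparisons with that group are given with no test. The log2 ratio of Ccnd1 to Ccnd2 was 1.97 higher in the testosterone group than at 14 days of castration, and that of Ccnd2 to Ccnd3 differed by -1.78. At 14 days against sham the Ccnd1 to Ccnd2 ratio differed by -1.55. The Ccnd1 to Ccnd3 ratio differed by 0.19 between testosterone and 14 days, with overlapping arrays (two-sided exact permutation p = 0.397).

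**Figure D2:**
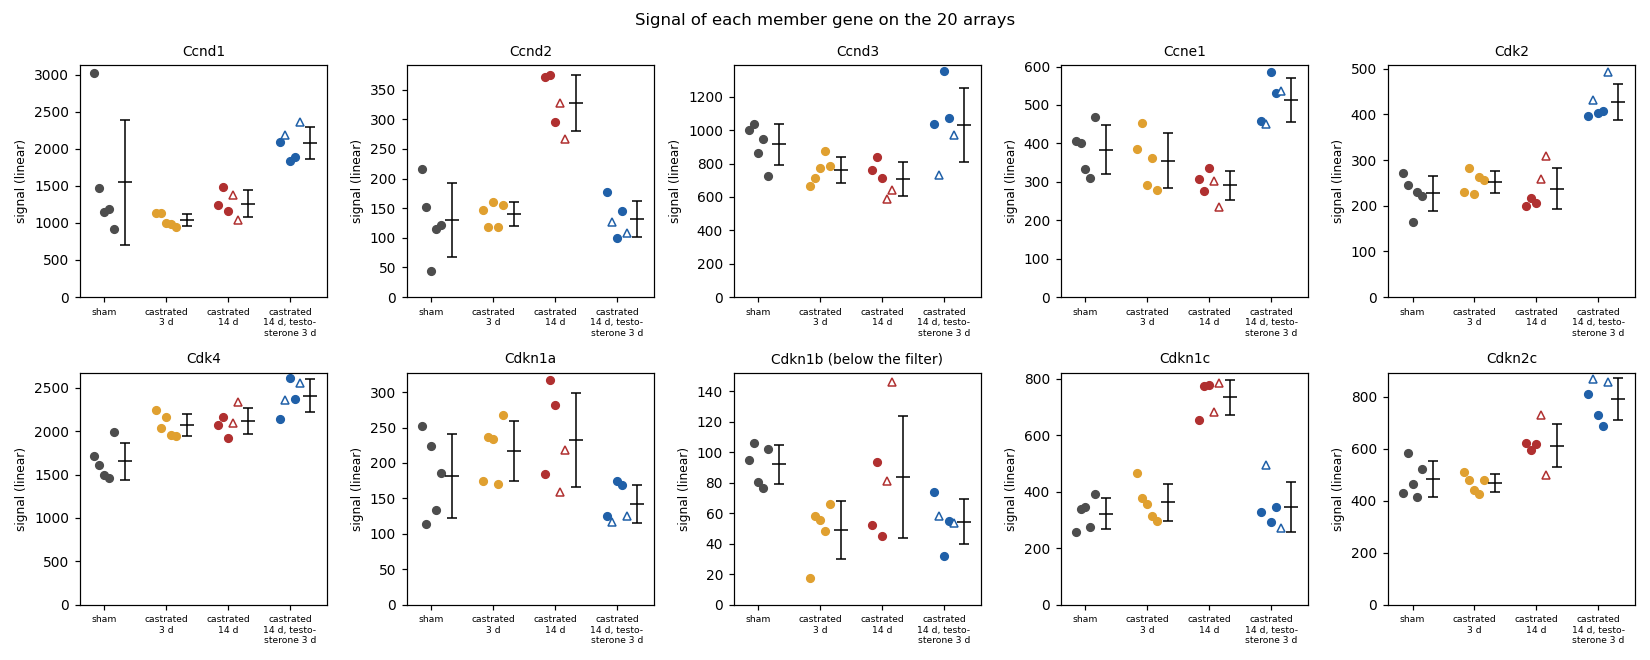
Linear signal (y axis, from 0) on each of the 20 arrays for the 10 G1 genes, by group, with mean and SD (bars, n = 5); open triangles are the 4 arrays with the high 3′ to 5′ Gapdh ratio. The 14-day arrays stand apart for Ccnd2 (265.9 to 375.3) and Cdkn1c (653.4 to 783.4), the testosterone arrays for Cdk2 (397.1 to 492.3), and 1 sham array is high for Ccnd1 (3015.5).

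Cyclin E, the partner of Cdk2 at the entry to S phase, was higher in regrowing prostates than in either regressed or intact ones. Ccne1 signals were 407, 399.6, 332.1, 309.8 and 469.1 in sham, 385, 453.9, 291.4, 361.1 and 279.5 at 3 days of castration, 306.2, 274.8, 336.2, 302.1 and 235.2 at 14 days, and 458, 450.7, 586.7, 531.5 and 535.5 with testosterone. The testosterone arrays lay above every 14-day array and overlapped the highest sham array. Means were 512 ± 57.4 with testosterone and 291 ± 38.0 at 14 days, a rise of 0.79 ± 0.14 (1.73-fold, adjusted p = 0.000109). Against sham the rise was 0.41 ± 0.14 (adjusted p = 0.0169; 0.0508 without sham replicate 4). The 14-day fall against sham was -0.38 ± 0.14 (adjusted p = 0.0269) and ended without any of 5 single arrays.

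Both kinases were higher in the testosterone group than in sham, but Cdk2 was called in neither castrated group against sham, whereas Cdk4 was called higher in both. Their promoters, shown because the kinases were called at different stages, come from RefSeq on build GRCm38.p6 and run from 250 bases before to 50 after the annotated start. The Cdk2 window is chr10:128705002-128705301 on the minus strand and the Cdk4 window is chr10:127063285-127063584 on the plus strand, both written 5′ to 3′ along the gene. Capitals mark an E2F word in Cdk2 (GCGGGAAA, which reads TTTCCCGC on the other strand) and E-box words (CACGTG, bound by Myc-type factors) in Cdk4.
Cdk2: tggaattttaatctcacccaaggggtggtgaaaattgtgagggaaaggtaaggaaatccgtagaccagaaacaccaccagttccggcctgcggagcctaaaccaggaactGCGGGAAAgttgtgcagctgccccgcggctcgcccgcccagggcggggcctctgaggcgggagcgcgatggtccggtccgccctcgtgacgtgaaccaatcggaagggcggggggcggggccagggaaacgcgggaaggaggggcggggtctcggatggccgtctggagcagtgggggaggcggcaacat
Cdk4: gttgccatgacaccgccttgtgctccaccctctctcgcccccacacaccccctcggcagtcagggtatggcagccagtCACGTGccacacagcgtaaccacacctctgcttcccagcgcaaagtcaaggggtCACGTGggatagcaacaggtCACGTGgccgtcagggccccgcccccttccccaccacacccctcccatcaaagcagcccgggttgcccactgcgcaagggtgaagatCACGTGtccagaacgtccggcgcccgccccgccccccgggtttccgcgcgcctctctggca
Promoter windows were found for 7 of the 10 genes, 10 windows in all, and Ccnd1, Ccnd2 and Cdkn1c were not among them. Both strands were searched for 3 kinds of motif whose words do not overlap. Any of the 4 E2F words TTTCCCGC, TTTCGCGC, TTTGCCGC and TTTGGCGC occurred in 2.26% of 32851 mouse promoter windows of this length and in 1 of the 10, that of Cdk2. CACGTG occurred in 7.15% of all windows and in 2 of the 10, that of Cdk4, with 4 matches, and 1 of the Cdkn2c windows. AGAACA, a half-site of the androgen receptor, occurred in 19.0% of all windows and in 2 of the 10, those of Ccne1 and the other Cdkn2c window. A match describes the letters only.

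Cdk2 signals were 271, 246, 165.3, 230 and 221.9 in sham, 230, 282.7, 225.4, 262.2 and 256.7 at 3 days of castration, 198.4, 215.9, 206.7, 258.4 and 307.9 at 14 days, and 397.1, 432.4, 402.9, 408.2 and 492.3 with testosterone. Every testosterone array was above every array of the other groups, which overlapped. Cdk2 averaged 427 ± 39.1 with testosterone and 237 ± 45.7 at 14 days (SD, n = 5 each), a rise of 0.83 ± 0.13 (1.77-fold, adjusted p = 3.09e-05). Against sham, at 227 ± 39.2, it rose by 0.89 ± 0.13 (1.85-fold, adjusted p = 1.38e-05). Castration for 14 days against sham gave 0.06 with a 95% interval of -0.20 to 0.33. The second Cdk2 probe set, 94411_at, stayed below the filter on the 20 arrays, with signals from 6.9 to 135.4. With no filter it did not follow the brighter set: it gave -1.09 ± 0.41 at 14 days against sham (adjusted p = 0.0408) and, with testosterone, -0.86 against sham (adjusted p = 0.099) and 0.23 against 14 days (adjusted p = 0.748).

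Cdk4, the kinase partner of the D cyclins, was read by a pair of probe sets that were called alike. On the brighter, 160538_at, signals were 1708.5, 1612.3, 1490, 1459.8 and 1993.5 in sham, 2242.2, 2036, 2164.7, 1958.4 and 1944.8 at 3 days of castration, 2070.8, 2158.8, 1924.6, 2095.8 and 2332.3 at 14 days, and 2144.5, 2357.5, 2617.4, 2372.4 and 2555.9 with testosterone. The highest sham array overlapped both castrated groups, and the testosterone arrays stood above the sham group. The log2 change against sham was 0.33 ± 0.09 at 3 days (adjusted p = 0.0188), 0.36 ± 0.09 at 14 days (adjusted p = 0.00252) and 0.55 ± 0.09 with testosterone (1.46-fold, adjusted p = 6.48e-05). Without sham replicate 3 or without replicate 1 of the 3-day mice the 3-day call ended (adjusted p = 0.0533 and 0.0521).

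The step between 14 days and testosterone was not called for Cdk4, at 0.19 with a 95% interval of -0.0042 to 0.37 (adjusted p = 0.104). It was called when arrays were centred on their median (0.38, adjusted p = 0.0154), with array weights (adjusted p = 0.0401) and with both probe sets averaged (adjusted p = 0.0422). The dimmer probe set, 101017_at, ran from 329.1 to 506.6 in sham, 430.9 to 738.8 at 3 days, 487.1 to 845 at 14 days and 745.1 to 948.6 with testosterone. Its log2 changes against sham were larger, at 0.62 ± 0.16 at 3 days (adjusted p = 0.012), 0.85 ± 0.16 at 14 days (adjusted p = 0.000178) and 1.11 ± 0.16 with testosterone (adjusted p = 1.28e-05).

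**Figure D3:**
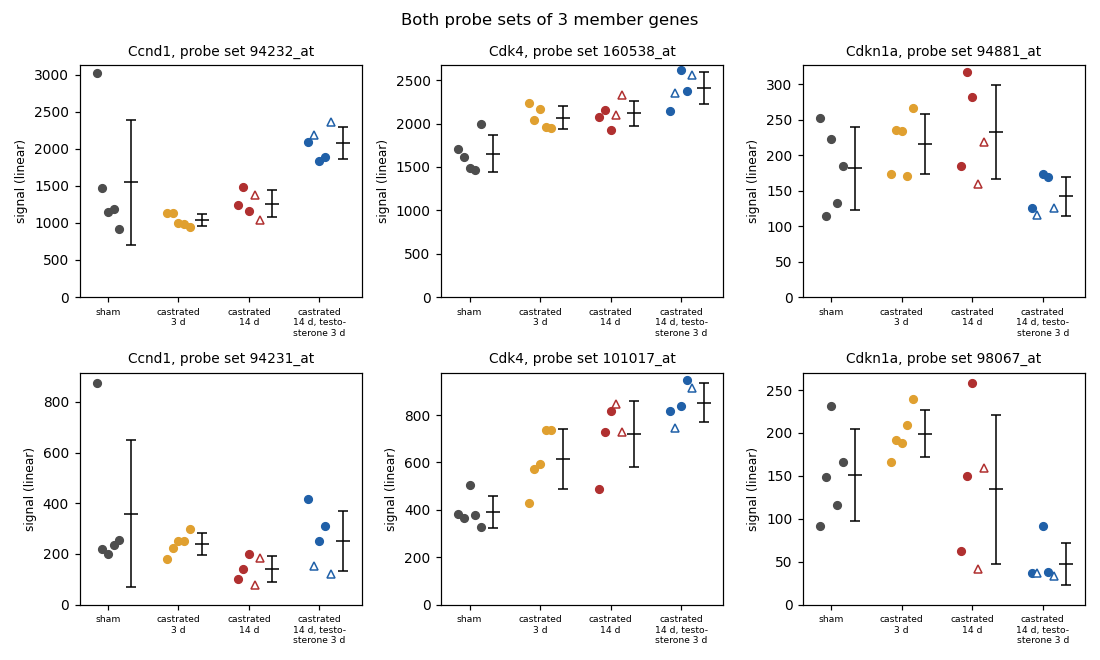
Linear signal (y axis, from 0) by group for the 3 genes read by a pair of tested probe sets, the brighter set in the upper row, with mean and SD (bars, n = 5); open triangles are the 4 arrays with the high 3′ to 5′ Gapdh ratio. The Cdk4 means rise over the groups in both rows, where only the differences from sham were called. The Ccnd1 pair differs at 14 days, and the dimmer Cdkn1a set drops to between 33.2 and 91.3 with testosterone.

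Among the CIP/KIP inhibitors, Cdkn1c was higher at 14 days of castration and lower again with testosterone, and Cdkn1a was lower with testosterone. Cdkn1c, an imprinted gene expressed mainly from the maternal copy, had signals of 256.4, 338.9, 345.1, 275.7 and 393 in sham, 464.5, 379.3, 356.8, 312.8 and 295 at 3 days of castration, 653.4, 772.5, 777.2, 681.3 and 783.4 at 14 days, and 328.6, 496.1, 291.9, 345.6 and 272 with testosterone. Each 14-day array exceeded each array of the other groups, and the other groups overlapped. Cdkn1c averaged 734 ± 61.4 at 14 days and 322 ± 55.5 in sham (SD, n = 5 each), a rise of 1.17 ± 0.15 (2.25-fold, adjusted p = 3.23e-06). The 14-day group was above the 3-day group by 1.01 ± 0.15 (adjusted p = 4.72e-05), and at 3 days against sham it gave 0.16 (adjusted p = 0.540).

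With testosterone Cdkn1c fell by 1.08 ± 0.15 against 14 days (2.11-fold lower, adjusted p = 1.09e-05), to 347 ± 88.4. Testosterone against sham gave 0.09 with a 95% interval of -0.23 to 0.41. These Cdkn1c calls held in each of the 32 alternatives tried. Those of Ccnd2 held in the 30 in which it was tested, but its passing the filter depended on the 14-day arrays. For Ccnd2 this adds no support beyond the test with no filter.

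Marker genes of other cell types also changed over these groups. Of all genes, 30.4% were called higher and 23.8% lower at 14 days against sham. With testosterone against 14 days the shares were 18.7% and 27.8%. The 7 macrophage markers summed to 1487.6 to 1845.2 in sham, 4067.5 to 4996.2 at 3 days, 7899.9 to 15397 at 14 days and 3124.9 to 5100.3 with testosterone, and 6 of 6 tested were higher at 14 days than in sham and lower with testosterone than at 14 days. The 5 endothelial markers summed to 496 to 865.3, 698.2 to 1278.2, 1495.1 to 1857.9 and 699.4 to 973.6 over those groups, with 3 of 4 tested higher at 14 days than in sham and lower with testosterone than at 14 days. The 3 adipocyte markers on the array summed to 244.4 to 746.1, 291.1 to 1407.4, 1296.6 to 2202.5 and 245.6 to 566.9, and 1 of 2 tested was higher at 14 days than in sham and 2 of 2 lower with testosterone than at 14 days. The 4 basal epithelial markers summed to 251.3 to 412 in sham, 314.8 to 439.8 at 3 days, 392 to 654.7 at 14 days and 339.6 to 372.8 with testosterone. Of these, 3 were below the filter signal on every array. The 1 tested, Trp63, was called higher at 14 days than in sham (0.81) and lower with testosterone than at 14 days (-0.49). The 6 fibroblast markers summed to 13046 to 14329 in sham, 17534 to 21013 at 3 days, 18180 to 24964 at 14 days and 17505 to 23481 with testosterone, with 4 of 6 higher at 14 days than in sham, and 3 higher and 2 lower with testosterone than at 14 days. The 5 smooth muscle markers ran the other way, with 3 of 5 lower at 14 days than in sham and 4 of 5 higher with testosterone than at 14 days. Of 6 skeletal muscle markers 4 were higher at 14 than at 3 days, beside 21.4% of all genes, and 1 higher with testosterone than at 14 days. Luminal markers summed to between 17335 and 24814 at 14 days and between 22108 and 30536 in sham. In the 14-day group each macrophage and endothelial marker exceeded the filter signal on at least 1 array, while in sham 2 of the 7 and 2 of the 5 were below it on every array. At 3 days against sham 5 of 6 macrophage and 1 of 4 endothelial markers were higher, beside 10.5% of all genes. With testosterone against sham 6 of 6 and 0 of 4 were higher, beside 24.6%. Ccnd2 and Cdkn1c were called in neither comparison. The 1 lymphocyte marker tested, Cd79a, was not called at 14 days against sham or with testosterone against 14 days. The part of these markers in the Ccnd2 and Cdkn1c results was not tested.

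Cdkn1a, the p53 target that blocks cyclin-kinase complexes, was read by a pair of probe sets, neither of which exceeded the filter signal on any testosterone array, so that passing the filter depended on the other groups. On the brighter, 94881_at, signals were 252.6, 113.7, 223.5, 133.3 and 185.2 in sham, 174.1, 236.3, 233.9, 170.5 and 267.5 at 3 days of castration, 184.8, 317.5, 282.3, 159.7 and 218.7 at 14 days, and 125.1, 116.3, 174, 169.4 and 125.6 with testosterone. The groups overlapped, with the testosterone arrays at the low end. Cdkn1a averaged 142 ± 27.3 with testosterone and 233 ± 66.1 at 14 days, and fell by 0.64 ± 0.21 (1.56-fold lower, adjusted p = 0.0178). The change was as large without the 4 high-ratio arrays, at -0.68, with an adjusted p of 0.0526. The call also ended with centring (-0.45, adjusted p = 0.077), with quantile normalization (-0.44, adjusted p = 0.0954) and without replicate 2 of the 14-day mice (-0.52, adjusted p = 0.0584).

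On 98067_at the testosterone signals of Cdkn1a were 36.4, 36.7, 91.3, 38.2 and 33.2, against 62.1, 149.7, 258.6, 41.6 and 158.7 at 14 days of castration. In sham this set gave 91.6, 148.7, 231.3, 116.2 and 166.4. Every testosterone array was below every sham array, while the 14-day arrays spread widely and overlapped both. The fall was 1.14 ± 0.34 against 14 days (log2 change -1.14, adjusted p = 0.0108) and larger against sham, at -1.47 ± 0.34 (adjusted p = 0.0016). The brighter set gave -0.29 with testosterone against sham (adjusted p = 0.251), so both readings of Cdkn1a had the same sign there and 1 was called. At 14 days against sham the signs were opposite, at 0.35 for the brighter set and -0.33 for 98067_at (limma adjusted p = 0.170 and 0.444). At 14 against 3 days they were 0.08 and -0.75 (limma adjusted p = 0.801 and 0.0886). The 3-day signals of 98067_at ran from 166.3 to 239.7.

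Cdkn1b, whose protein level is known to be set largely by degradation, did not enter the test. Both of its probe sets stayed below the filter signal on all 20 arrays. The brighter, 161010_r_at, ran from 76.9 to 106.2 in sham, 17.3 to 66.4 at 3 days of castration, 45.3 to 146 at 14 days and 32.1 to 74.2 with testosterone. The dimmer, 100278_at, ran from 25.6 to 78.1, 14.7 to 56.7, 20 to 63.4 and 9.8 to 70.8 over the same groups. With no filter the brighter set was called in 0 of the 5 comparisons by limma, with an unadjusted p under 0.05 in 3: -0.83 ± 0.27 at 3 days against sham (adjusted p = 0.0618), 0.62 ± 0.27 at 14 against 3 days (adjusted p = 0.1) and -0.66 ± 0.27 with testosterone against sham (adjusted p = 0.0549). The dimmer set was called lower with testosterone than in sham, at -0.91 ± 0.34 (adjusted p = 0.0379).

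The INK4 inhibitor Cdkn2c took a different course from the CIP/KIP genes, being highest in the testosterone group. Its signals were 431.2, 585.1, 464.4, 414.5 and 520.3 in sham, 510.7, 481, 442.6, 424.1 and 479.1 at 3 days of castration, 622.3, 593.3, 617.9, 728.7 and 497.1 at 14 days, and 809.6, 869.2, 730.6, 688.9 and 858 with testosterone. Testosterone arrays were above every sham and 3-day array and overlapped 1 array of the 14-day group. Cdkn2c averaged 791 ± 79.1 with testosterone and 483 ± 69.9 in sham, a rise of 0.70 ± 0.11 (1.63-fold, adjusted p = 3.43e-05).

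Cdkn2c was also higher at 14 days than at 3 days of castration, by 0.37 ± 0.11 (adjusted p = 0.0112), and with testosterone than at 14 days, by 0.37 ± 0.11 (adjusted p = 0.00974). Without the 4 high-ratio arrays the second of these was 0.27 and not called (adjusted p = 0.0869). At 14 days against sham it rose by 0.33 ± 0.11 (adjusted p = 0.0151), a call that ended with centring (adjusted p = 0.0504) and without replicate 4 of the 14-day mice (adjusted p = 0.052).

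The inhibitors were also set against each other within arrays, among 30 ratio tests over 6 gene pairs with p-values adjusted over the 30. The log2 ratio of Cdkn1c to Cdkn2c was higher at 14 days of castration than in sham, by 0.84, and lower in the testosterone group than at 14 days, at -1.45, with no overlap in either case (two-sided exact permutation p = 0.00794, the smallest that 5 against 5 arrays allow, and adjusted p = 0.0238 for both). In the testosterone group it was also lower than in sham, at -0.61 (exact p = 0.00794, adjusted p = 0.0238). Of the 30 ratio tests in this family, 11 had an adjusted p under 0.05, but 6 of these had Ccnd2 in a comparison with the 14-day group. The filter favoured a difference there, so these 6 are no support. Their small p-values also lowered the adjusted p of the other ratios. The ratios restate the changes of the single genes.

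Other genes listed under G1 and S phase control, a list that also holds the mitotic inhibitor kinase Wee1, were called in both directions with testosterone. Of 15 tested genes of G1 and S phase control outside the 10, 8 were higher and 6 lower than at 14 days of castration, with a median log2 change of 0.32, beside -0.11 over all genes and 18.7% higher and 27.8% lower among them. Centring left 8 higher and 2 lower, beside 26.9% and 15.6% of all genes, and quantile normalization 8 and 3, beside 20.5% and 22.6%. The largest rises were those of the kinase-associated phosphatase Cdkn3, which averaged 444 with testosterone and 12.7 at 14 days but passed the filter on testosterone arrays alone and so had to differ, of the kinase-binding subunits Cks2 (2.34 ± 0.14) and Cks1b (1.36 ± 0.14), and of the ubiquitin ligase subunit Skp1 (1.34 ± 0.35). The INK4 gene Cdkn2d (p19) rose by 1.30 ± 0.19 at 14 days against sham (limma adjusted p = 1.24e-05). With testosterone it rose by a further 1.33 ± 0.19 against 14 days (limma adjusted p = 1.26e-05). Cdkn2d averaged 107 in sham and 126 at 3 days of castration, below the filter signal, but 269 at 14 days and 696 with testosterone. Its passing the filter may thus have depended on the 14-day and testosterone arrays and favoured these differences. Rbl2, the retinoblastoma relative p130 that is known to bind E2F in resting cells, averaged 157 with testosterone and 319 at 14 days and fell by 0.98 ± 0.15 (adjusted p = 3.91e-05), and the mitotic inhibitor kinase Wee1 fell by 0.99 ± 0.18.

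**Figure D4:**
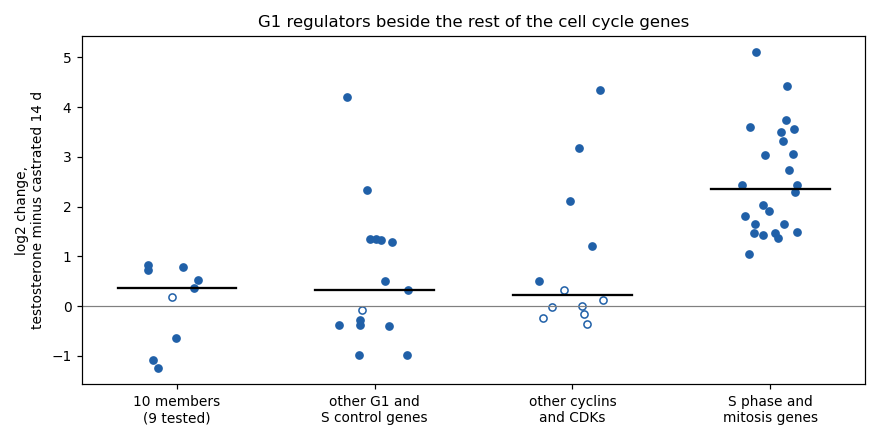
Log2 change, testosterone minus castrated 14 days (y axis), of each tested gene (points; filled where the adjusted p was under 0.05) in 4 groups of cell cycle genes, with the median of each group (bar). The G1 genes spread between -1.25 and 0.83 around a median of 0.37, while the S phase and mitosis genes lie between 1.05 and 5.11 around a median of 2.36.

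Genes of S phase and mitosis moved further. The 24 tested of 26 on the array were each called higher with testosterone than at 14 days of castration, beside 18.7% of all genes. Their median log2 change was 2.36. The same 24 of 24 were called without the 4 high-ratio arrays, beside 17.9% of all genes called higher. For 10 of the 24, Mki67 and Top2a among them, the filter was passed on testosterone arrays alone, so those had to differ. The list, like the others here, was chosen with earlier results of these data known. The share of all genes beside it is therefore a description and not a test. Mki67, a marker of dividing cells, averaged 1367 with testosterone and 27.7 at 14 days, and Top2a, which untangles replicated DNA, 685 and 21.2. Among other cyclins and kinases 5 of 12 were higher and 0 lower (1 lower at an unadjusted limma p under 0.05), beside 18.7% and 27.8% of all genes. The rises were led by Cdk1 (4.34 ± 0.32), Ccnb2 (3.18 ± 0.15) and Ccna2 (2.11 ± 0.23), the kinase and cyclins of later phases. Of these, Cdk1 passed the filter on testosterone arrays alone and so had to differ. The smallest rise among the 24 S phase and mitosis genes was 1.05, for Mcm4, and the largest among the G1 genes was 0.83, for Cdk2. Against sham the S phase and mitosis genes gave 24 higher and 0 lower, beside 24.6% and 28.6% of all genes, with a median of 2.64.

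At 14 days of castration against sham 6 of the 24 S phase and mitosis genes were higher and 4 lower, or 25% and 16.7%, beside 30.4% and 23.8% of all genes. The higher ones were led by Mcm5 (1.07) and Mad2l1 (0.91), and the lower ones by Top2a (-0.98) and Rrm2 (-0.79). At 3 days 0 were called either way by limma, with 4 higher and 6 lower at an unadjusted p under 0.05. The other G1 and S control genes gave 5 higher and 5 lower of 15 at 14 days, or 33.3% each way, with Skp1 at -2.06 ± 0.35 and Cdc25a, the phosphatase that activates Cdk2, at -0.75 ± 0.10. Of the other cyclins and kinases 2 were lower at 14 days, Ccnt1 (-0.79) and Cdk5 (-0.54), and 0 higher, also at an unadjusted limma p under 0.05.

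Of 11 tested growth-arrest and forkhead genes, 1 was higher and 9 lower with testosterone than at 14 days, beside 18.7% and 27.8% of all genes, with a median of -0.45. With arrays centred 4 were lower, beside 15.6% of all genes, with quantile normalization 7, beside 22.6%, and without the 4 high-ratio arrays 5, beside 23.9%. Cebpb (-0.94 ± 0.10), Cebpa (-0.90 ± 0.15), Tgfb2 (-0.72 ± 0.16) and Btg1 (-0.72 ± 0.11) fell most, and Tob1 rose by 0.39. Among 5 tested p53 genes, Gadd45a (-0.84 ± 0.18) and Btg2 (-0.56 ± 0.14) fell with testosterone and Perp rose (0.46 ± 0.15); with arrays centred 1 was higher and 1 lower.

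Upstream activators of D cyclins gave 1 higher and 6 lower of 13 tested with testosterone against 14 days, with a median of -0.34, beside 18.7% and 27.8% of all genes. Under either scaling they gave 1 and 4, beside 15.6% of all genes lower with centring and 22.6% with quantile normalization. The immediate early genes Jun (-1.92 ± 0.23), Fos (-1.68 ± 0.18) and Junb (-0.96 ± 0.19) fell, and Stat5a, a signal carrier of prolactin and growth hormone receptors, rose by 1.05 ± 0.09. At 14 days against sham Jun (1.27), Fos (1.26) and Ctnnb1 (0.97) rose while the growth factor gene Egf fell by 2.60 ± 0.28, and between testosterone and 14 days it was not called, at averages of 1041 and 1216.

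The genes whose pattern over the 20 arrays was nearest to a member were found by the root mean square difference of centred log2 signals. For Ccnd2 they were St8sia4, Lpgat1 and Zbtb20, at 0.34, 0.35 and 0.35, where Ccnd2 itself varied by 0.67. For Cdkn1c they were Dram2, Thra and Il10rb, at 0.25, 0.25 and 0.26 beside its own 0.52, and for Ccnd1 Ppa1, Pdlim1 and Nme1, at 0.23, 0.26 and 0.26 beside 0.48. These are descriptions over the same arrays, which share treatment and scaling.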

How the data were processed

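The authors deposited 1 linear intensity per probe set and array, which MAS5 version 5.0 produced per the submitters' processing notes. The trimmed mean of each array lay near 500, so the arrays had been scaled before the authors deposited them. Groups came from the labels, which give no batch and no pairing. Gene symbols came from GEO's platform annotation: of 12422 probe sets besides 66 controls, 10833 had 1 symbol, 396 several and 1193 none.

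Signals were analysed as log2(signal + 12.7), the pseudocount being the 10th percentile of all values, so folds of dim genes are understated. A probe set was tested if it exceeded 190.8 (the median signal of the table) on 5 or more of the 20 arrays. One linear model over the 4 groups was fitted with limma 3.58.1 in R 4.3.3 using lmFit, contrasts.fit and eBayes, for 5 two-sided contrasts and Benjamini-Hochberg adjustment over all probe sets tested, called at 0.05. Each gene is represented by its brightest probe set, and folds were taken back from log2 changes. Ratios of members within arrays were compared with exact permutation tests (scipy 1.17.1). The fit was tested on simulated data. Alternatives changed the pseudocount, filter, scaling, variance model, array weights, groups fitted, probe set rule and arrays used.

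The members and gene lists were chosen with earlier results of these data known. Every member probe set is described. From each list up to 4 called genes per comparison, by size of change, were eligible to be named, and a selection is given. Outside that rule, Tob1, Rbl2, Mcm4, Cdkn2d and Wee1 with testosterone, and Egf with testosterone against 14 days, were named after their values were seen. Nearest genes were sought for the 3 members with the widest span of group means. The number of arrays limits the precision. Promoter sequences are from RefSeq (GRCm38.p6); gene coordinates were not used here.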

Additional observations from a re-analysis of the deposited data

Results flagged for a closer look

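Among 48 groups of 5 arrays checked for an array far from the rest of its group, 3 stood out, where chance gives about 1 in 20 groups. In sham prostates replicate 1 read 3015.5 for Ccnd1 on 94232_at, while the other 4 lay between 917.1 and 1474, and it read 875.2 on 94231_at, while the other 4 lay between 200.7 and 256.4. Both probe sets thus picked out the same mouse. In the testosterone group Cdkn1a on 98067_at read 91.3 on replicate 3, while the other 4 lay between 33.2 and 38.2.

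The change against sham differed between 14 and 3 days of castration for 3 genes, tested as the 14-day minus the 3-day group: Ccnd2 by 1.16 (limma, adjusted p = 0.00143), Cdkn1c by 1.01 (adjusted p = 4.72e-05) and Cdkn2c by 0.37 (adjusted p = 0.0112). Each was higher at 14 days.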

How the results depend on the processing

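The 9 tested genes gave 45 results over 5 comparisons, of which 23 were called. Over 1430 recomputed values, 1377 kept their side of the threshold, of which 20 changed sign without being called, 45 lost a call, 8 gained one and 0 reversed a call. The alternatives include leaving out arrays of groups outside a comparison, which hardly touches its log2 change. The kept total therefore overstates how steady the results are. Of the 23 calls, 14 held in every alternative in which the gene was tested: Ccnd2 and Cdkn1c in 3 comparisons each, Cdk2 with testosterone in both, Ccne1 and Ccnd3 with testosterone against 14 days, Cdk4 at 14 days and with testosterone against sham, and Cdkn2c at 14 against 3 days and with testosterone against sham. The filter favoured the Ccnd2 calls, since Ccnd2 passed it through the 14-day arrays. The other 9 calls were lost somewhere, and the cause was not tested.

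The count at 3 days against sham went to 0 with arrays centred on their median (limma; 1 at an unadjusted p under 0.05), and leaving out single arrays gave 0, without sham replicate 3 or 3-day replicate 1, to 1, the value as reported. All genes gave 10.5% higher and 4.66% lower as reported, and 7.97% and 3.28% with centring. Shares of all genes were not taken for fits without single arrays or with the filter redone. At 14 days against sham the count was 3 of 8 without the 4 arrays with a high 3′ to 5′ Gapdh ratio, where Ccnd2 no longer passed the filter, against 6 of 9. With the same probe sets it was 4 of 9, beside 27.4% of all genes higher and 22.6% lower. As reported these shares were 30.4% and 23.8%. With testosterone against 14 days the count was 4 of 8 without those arrays and 5 of 9 with the same probe sets, a setting chosen after seeing the data, against 8 of 9. All genes gave 17.9% higher and 23.9% lower with the same probe sets, and 18.7% and 27.8% as reported. With testosterone against sham, leaving out single arrays gave 3, without sham replicate 4, to 5, the value as reported. As reported, 24.6% of all genes were higher and 28.6% lower there. No paired analysis was possible because the labels number no replicates across groups. Signals below the filter kept Cdkn1b and the dimmer Cdk2 probe set out of the test, and Cdkn1a with testosterone, and Ccnd2 with testosterone and at 3 days, were below it on every array.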
